A study of Mus musculus with 9 samples.

Results

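Dendritic cells and macrophages are told apart by a small set of genes, and 9 of them are described here in mouse bone marrow cultures given tumor DNA: the growth factor receptor genes Csf2ra, Csf1r and Flt3, the transcription factor genes Id2, Spi1 and Zbtb46, and the surface protein genes Mertk, Adgre1 and Dpp4. Every probe set whose single gene symbol in the array annotation was one of these was taken, which gave 20 of the 34945 probe sets with 1 symbol, for 9 of 18193 genes. All 9 arrays came from bone marrow derived dendritic cells on the 129/SvEv strain background, grown for 9 to 12 days with GM-CSF. The group called STING tumor DNA held 3 arrays of STING knockout cells given purified DNA from tumor cells, WT tumor DNA held 3 arrays of wild-type cells given such DNA, and WT media held 3 arrays of unstimulated wild-type cells. The DNA was delivered with the lipid reagent Lipofectamin and acted for 7 h before total RNA was taken. STING, an adaptor protein of the endoplasmic reticulum, passes on the signal of the enzyme cGAS when DNA appears in the cytosol. Unstimulated knockout cells and cells that received only the reagent were not analysed here, so a difference between knockout and wild-type cells that was there before stimulation cannot be told apart from a difference in the response to DNA, and the effect of the DNA cannot be told apart from that of the reagent. The labels do not give the altered allele, the number of mice or whether arrays of a group came from separate cultures, so a p-value here is set against the spread of these arrays alone, and that spread may be technical. In such bulk samples fewer cells of a type and less RNA per cell cannot be told apart.

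GM-CSF acts through a receptor made of the alpha chain encoded by Csf2ra and a shared beta chain, and signals through the kinase JAK2 to STAT5. M-CSF and interleukin-34 act through CSF1R, the main receptor for macrophage growth and survival, while FLT3 ligand acts through FLT3, the receptor on dendritic cell precursors and conventional dendritic cells. PU.1, the product of Spi1, is required for both lineages, ID2 blocks E proteins and is needed for several dendritic cell subsets, and ZBTB46 marks conventional dendritic cells and their committed precursors. MERTK, a receptor kinase that takes part in the uptake of dying cells, and F4/80, the protein made by Adgre1, mark tissue macrophages, and DPP4 (CD26) is a surface peptidase found on some dendritic cells and on T cells. Cultures grown from bone marrow with GM-CSF are known to hold both dendritic cells and macrophages.

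Promoter sequences were found in the RefSeq table (build GRCm38.p6) for 6 of the 9 genes: Flt3, Csf2ra, Zbtb46, Id2, Dpp4 and Mertk. Csf1r, Spi1 and Adgre1 were not among the matches. The 250 bases before the gene's start are printed 5′ to 3′ for Mertk and Id2, because the main probe sets of these genes passed a test, and for Csf2ra and Dpp4, because these are the promoters that held any of the motifs searched. Capitals mark the matches.
Mertk, chr2:128698665-128698914, plus strand: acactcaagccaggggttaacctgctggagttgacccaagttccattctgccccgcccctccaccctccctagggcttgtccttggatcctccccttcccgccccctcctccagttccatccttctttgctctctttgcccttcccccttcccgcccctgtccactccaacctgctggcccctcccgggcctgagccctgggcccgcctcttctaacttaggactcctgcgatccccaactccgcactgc
Id2, chr12:25096093-25096342, minus strand: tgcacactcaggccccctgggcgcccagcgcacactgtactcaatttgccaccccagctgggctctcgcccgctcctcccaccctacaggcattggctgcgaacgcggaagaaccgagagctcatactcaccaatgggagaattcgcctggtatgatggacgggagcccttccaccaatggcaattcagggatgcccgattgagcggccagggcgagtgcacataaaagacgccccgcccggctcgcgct
Csf2ra, chr19:61228419-61228668, minus strand: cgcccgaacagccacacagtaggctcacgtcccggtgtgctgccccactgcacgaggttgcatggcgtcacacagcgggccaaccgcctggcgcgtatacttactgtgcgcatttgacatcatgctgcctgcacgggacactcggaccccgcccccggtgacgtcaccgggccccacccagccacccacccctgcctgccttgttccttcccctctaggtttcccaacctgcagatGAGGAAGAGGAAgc
Dpp4, chr2:62412232-62412481, minus strand: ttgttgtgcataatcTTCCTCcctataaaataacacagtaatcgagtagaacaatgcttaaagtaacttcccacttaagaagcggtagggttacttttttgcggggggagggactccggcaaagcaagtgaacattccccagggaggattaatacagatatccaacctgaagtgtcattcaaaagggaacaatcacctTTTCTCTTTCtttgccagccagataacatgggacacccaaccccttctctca
The motifs were searched on both strands in the 300 bases from 250 before to 50 after the start: the interferon-stimulated response element taken as GAAA, any 2 bases and GAAA, the interferon gamma-activated site written as TTCNNNGAA, the PU box bound by PU.1 written as GAGGAA, and the NF-kappaB motif. These motifs occurred in 3.44%, 8.3%, 28.3% and 8.46% of all 32851 promoters of that length, in the order named. The Csf2ra window held 2 adjacent copies of GAGGAA on the strand of the gene, at positions −14 and −8 from the start. The Dpp4 window held 1 interferon-stimulated response element and 1 GAGGAA, both on the opposite strand, at −52 and −235. The windows of Flt3, Zbtb46, Id2 and Mertk held none of the 4. A match is a description of the letters only, and the absence of one says only that these letters are not in this window.

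Levels are given as the deposited MAS5 signals, which are linear and were scaled to a common trimmed mean, so a signal can be compared between arrays for the same probe set and not between probe sets. The median signal of an array was 53.7 to 70.9 and the ratio of the 3′ to the 5′ Gapdh probe sets was 0.8 to 0.899. The knocked-out gene, Sting1, read 246, 336 and 327 in STING tumor DNA arrays, against 2258, 1061 and 1158 in WT tumor DNA arrays and 1524, 1081 and 646 in WT media arrays, on a probe set (1427911_at) whose place relative to the altered part is not known. The log2 difference of the STING tumor DNA arrays from the WT tumor DNA arrays was −2.17 ± 0.35 (SE, adjusted p = 0.00162, limma). Arrays of the same replicate number deviated together, and BioB, an RNA added as a control, gave signals of 406 to 552 on the number 1 arrays and of 115 to 189 on the other arrays. A fit with the replicate number as a block is therefore given beside the results whose calls or counts it changes.

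Differences are on the scale of log2(signal + 16), with a standard error from limma over all 9 arrays (3 per group), and a gene or probe set was called at an adjusted p (Benjamini-Hochberg over 27022 probe sets) below 0.05. Each gene was counted by its brightest probe set. Of the 9 genes, 8 were tested, and Flt3 lay below the filter on low signals. In WT tumor DNA against WT media, Id2 was called higher and none was called lower. The background over all 12586 genes was 9.53% called higher and 22.5% called lower. With the replicate block, Spi1 and Mertk were also called higher and Adgre1 was called lower, where 12.9% and 30.6% of all genes were. In STING tumor DNA against WT tumor DNA, Mertk was called lower and none was called higher, where 9.40% of all genes were called lower and 20.5% higher. There the block also called Spi1 lower and Adgre1 higher, where 12.6% of all genes were lower and 28.9% higher. In STING tumor DNA against WT media 0 of the 8 genes were called by limma, where 0.175% of all genes were called higher and 0.246% lower. The count was also 0 at an unadjusted p below 0.05, where 3.35% of all genes were higher and 4.39% lower. At an unadjusted p below 0.05, 2 of the 8 were higher and 0 lower in WT tumor DNA against WT media, where 13.4% of all genes were higher and 31.0% lower. At that p 0 were higher and 3 lower in STING tumor DNA against WT tumor DNA, where 29.6% were higher and 13.3% lower. Over the 17 tested probe sets, 2 were called higher (both of Id2) in WT tumor DNA against WT media, where 8.54% of all probe sets were called higher and 18.4% lower. A single probe set, that of Mertk, was called lower in STING tumor DNA against WT tumor DNA, where 16.8% were called higher and 8.35% lower, and in STING tumor DNA against WT media 0 were, where 0.189% were called higher and 0.192% lower. The median log2 difference of the 8 was 0.21 in WT tumor DNA against WT media, where that of all genes was −0.20, and −0.25 in STING tumor DNA against WT tumor DNA, where that of all genes was 0.20. The comparisons share arrays, and WT tumor DNA stands first in one and second in another, so the spread of those arrays moves both.

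**Figure D1:**
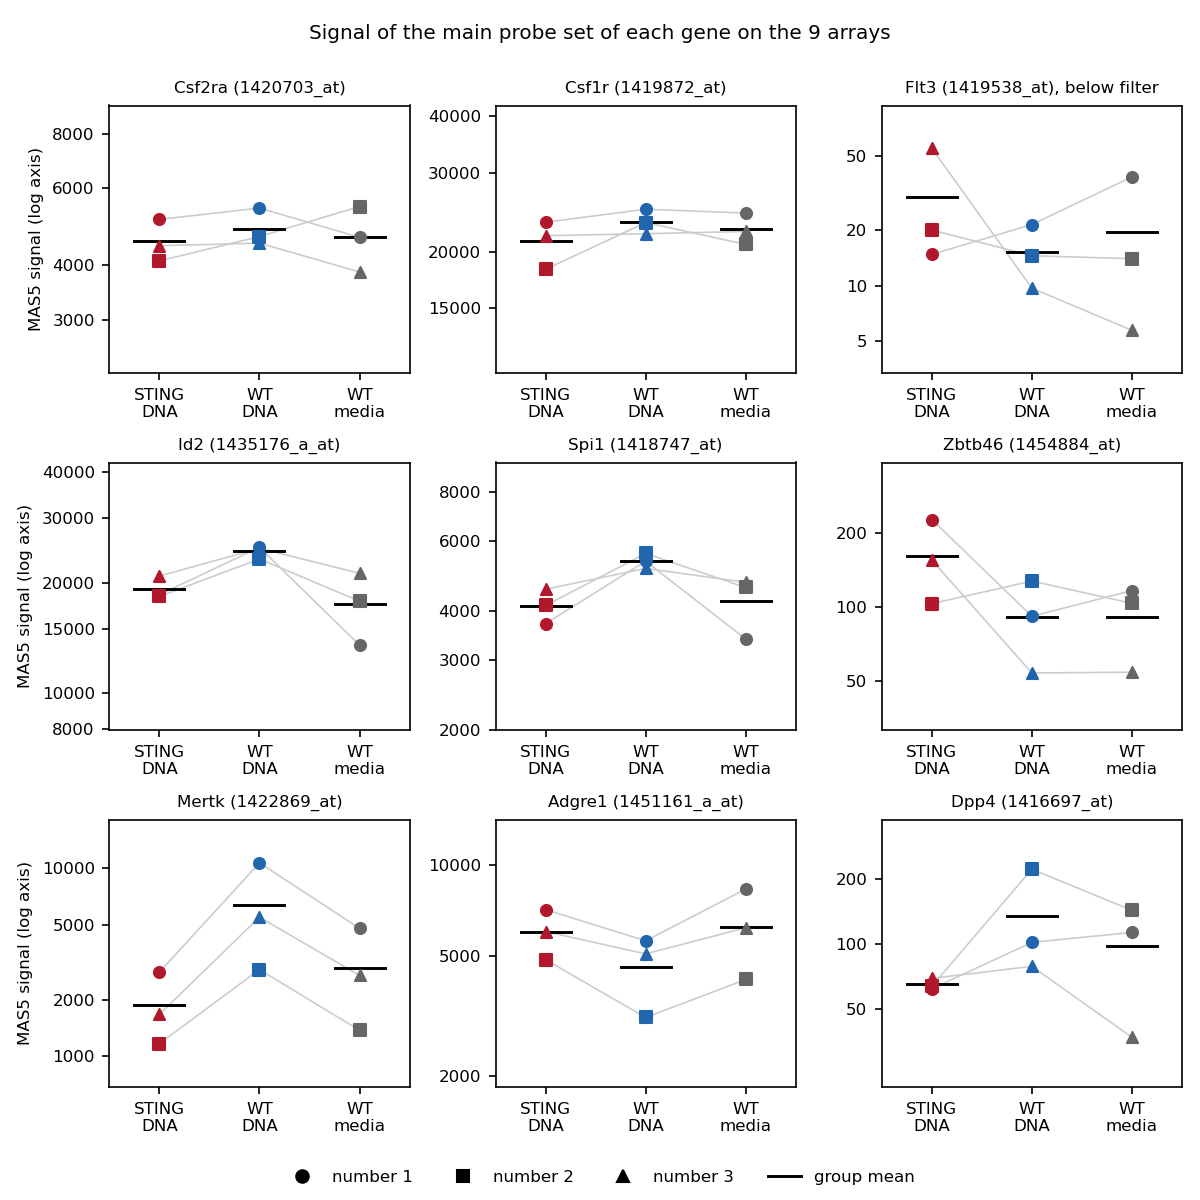
Signal of the main probe set of each of the 9 genes (vertical log axis, MAS5 signal) in the STING tumor DNA, WT tumor DNA and WT media arrays. Points are arrays, their shapes give the replicate number, grey lines join arrays of the same number and black bars are group means. Mertk was highest on the WT tumor DNA array of every number, Id2 and Spi1 had all 3 WT tumor DNA arrays above the other 6, and Flt3 stayed between 5.74 and 55.1.

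**Figure D2:**
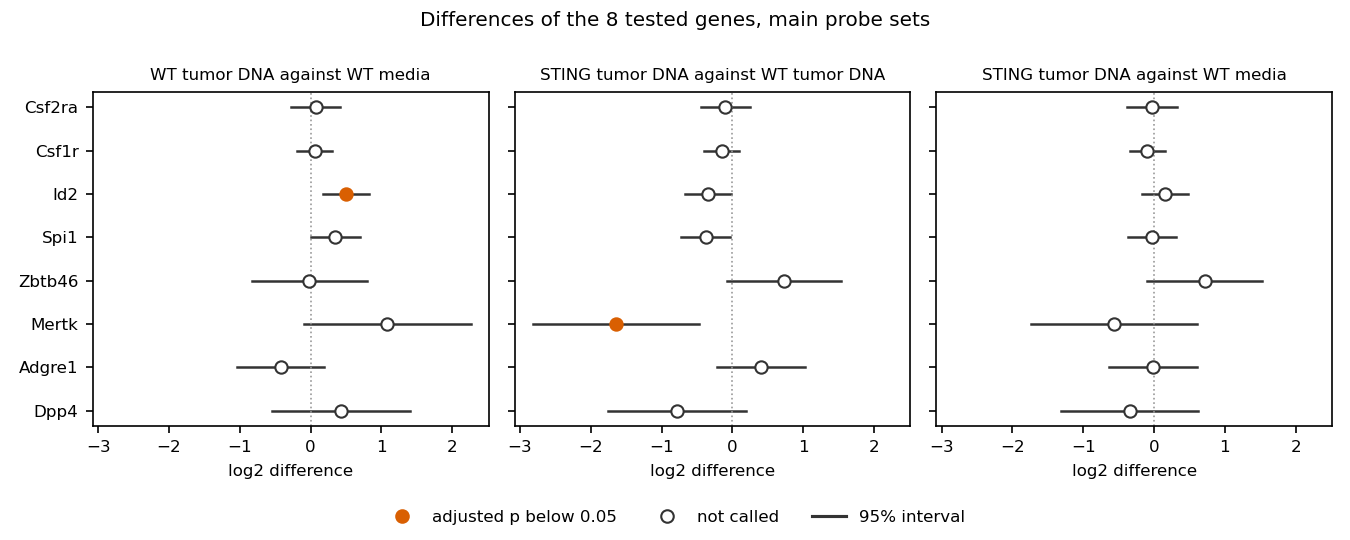
Log2 differences of the main probe sets of the 8 tested genes (horizontal axis) with 95% confidence intervals in the 3 comparisons. Points and intervals are from the fit without the replicate number. Filled points passed an adjusted p below 0.05: Id2 in WT tumor DNA against WT media and Mertk in STING tumor DNA against WT tumor DNA.

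Among the growth factor receptors, the GM-CSF receptor alpha chain gene Csf2ra was not called in any comparison. Its main probe set (1420703_at) read 5096, 4097 and 4437 in STING tumor DNA arrays, 5407, 4656 and 4499 in WT tumor DNA arrays, and 4637, 5452 and 3865 in WT media arrays. The groups overlapped, with both the highest and the lowest array in WT media. The log2 difference was 0.07 ± 0.16 in WT tumor DNA against WT media (95% interval −0.28 to 0.42, adjusted p = 0.781) and −0.10 ± 0.16 in STING tumor DNA against WT tumor DNA (−0.45 to 0.25, adjusted p = 0.703). A dimmer Csf2ra probe set (1420704_at) read 432, 472 and 498 in STING tumor DNA arrays, 445, 385 and 331 in WT tumor DNA arrays and 398, 453 and 482 in WT media arrays, also with overlap.

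The M-CSF receptor gene Csf1r was measured by 3 probe sets that did not run alike. The brightest (1419872_at) read 23267, 18290 and 21717 in STING tumor DNA arrays, 24868, 23232 and 21946 in WT tumor DNA arrays, and 24385, 20772 and 22191 in WT media arrays. These groups overlapped, with the lowest array in STING tumor DNA and the highest in WT tumor DNA. Its log2 difference was 0.06 ± 0.11 in WT tumor DNA against WT media (95% interval −0.19 to 0.31, adjusted p = 0.746) and −0.15 ± 0.11 in STING tumor DNA against WT tumor DNA (−0.40 to 0.10, adjusted p = 0.362). The signs of both depended on the setting, with ranges of −0.29 to 0.36 and −0.41 to 0.09 over the alternatives.
The dimmest Csf1r probe set (1423593_a_at) read 9355, 5296 and 5578 in STING tumor DNA arrays, 7569, 5035 and 4877 in WT tumor DNA arrays, and 12229, 8627 and 7157 in WT media arrays. Within each number the WT tumor DNA array lay below the WT media array, by 0.69, 0.78 and 0.55 in log2 for numbers 1, 2 and 3, although the groups overlapped. The difference of −0.67 ± 0.27 was not called (adjusted p = 0.0889), and it was called with the replicate number as a block (adjusted p = 0.0011), with number 1 as a batch (0.00115), with quantile normalization (0.0391) and without number 1 (0.0195). The same probe set gave 0.19 ± 0.27 in STING tumor DNA against WT tumor DNA (adjusted p = 0.651). The remaining probe set (1419873_s_at) had all 3 WT tumor DNA arrays (13707 to 16593) below the 3 WT media arrays (17418 to 19669), with a difference of −0.26 ± 0.13 and an adjusted p of 0.177, which became 0.0135 with quantile normalization.

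Flt3, the receptor gene of the dendritic cell lineage, was close to the array floor in every group. Its probe set (1419538_at) read 14.7, 19.9 and 55.1 in STING tumor DNA arrays, 21.4, 14.5 and 9.69 in WT tumor DNA arrays, and 38.6, 14.0 and 5.74 in WT media arrays, and was above the array's median on 0 of 9 arrays. The values overlapped in all groups, and no test was made of them. Probe sets differ in how they bind, so a low signal is not a measure of the receptor's RNA against that of another gene.

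Id2, whose product binds E proteins and keeps them off DNA, was higher in WT tumor DNA arrays than in WT media arrays by its 2 brightest probe sets. The brightest (1435176_a_at) read 18536, 18330 and 20828 in STING tumor DNA arrays, 24927, 23180 and 24782 in WT tumor DNA arrays, and 13519, 17799 and 21190 in WT media arrays. All 3 WT tumor DNA arrays lay above the other 6, while the STING tumor DNA and WT media arrays overlapped. WT tumor DNA against WT media gave 0.50 ± 0.15 (adjusted p = 0.0301), and the differences within numbers 1, 2 and 3 were 0.88, 0.38 and 0.23. This call ended with quantile normalization (0.28, adjusted p = 0.147), with no filter (0.0716), with no intensity trend (0.0919), and without number 1 (0.161), number 2 (0.113) or number 3 (0.0579). It also ended without array 1 (0.0827) or 3 (0.0773) of WT tumor DNA, and without array 1 (0.081) or 2 (0.0617) of WT media. STING tumor DNA against WT tumor DNA gave −0.34 ± 0.15 on this probe set. That was not called (adjusted p = 0.119, and 0.052 with the replicate block), except with median centring and with only the 2 groups compared.
The second Id2 probe set (1422537_a_at) read 14186, 13101 and 14417 in STING tumor DNA arrays, 20219, 16404 and 18518 in WT tumor DNA arrays, and 8373, 11264 and 11597 in WT media arrays. The 3 groups did not overlap at all: WT tumor DNA was highest, STING tumor DNA in between and WT media lowest. WT tumor DNA against WT media gave 0.83 ± 0.14 (adjusted p = 0.00237; 1.27, 0.54 and 0.67 within numbers 1, 2 and 3), and the call held in every alternative run, left-out arrays included. STING tumor DNA against WT tumor DNA gave −0.40 ± 0.14 (adjusted p = 0.0605), which the replicate block brought to 0.0412. STING tumor DNA against WT media gave 0.43 ± 0.14 (adjusted p = 0.424). The third probe set (1453596_at), at signals of 609 to 1319, gave 0.49 ± 0.23 in WT tumor DNA against WT media. It was not called there (adjusted p = 0.136, and 0.0364 with median centring). In STING tumor DNA against WT tumor DNA it gave −0.04 ± 0.23 (adjusted p = 0.915). In STING tumor DNA against WT media it gave 0.45 ± 0.23, not called (adjusted p = 0.756). There all 3 STING tumor DNA arrays lay above the 3 WT media arrays, as they did on the second probe set.

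Spi1, which codes for PU.1, was also highest in the WT tumor DNA arrays, by smaller steps that did not pass the test. Its only probe set (1418747_at) read 3712, 4127 and 4537 in STING tumor DNA arrays, 5343, 5591 and 5124 in WT tumor DNA arrays, and 3391, 4583 and 4723 in WT media arrays. All 3 WT tumor DNA arrays lay above the other 6, and the STING tumor DNA and WT media arrays overlapped. The difference of 0.35 ± 0.15 in WT tumor DNA against WT media was not called (adjusted p = 0.117), and neither was that of −0.38 ± 0.15 in STING tumor DNA against WT tumor DNA (adjusted p = 0.0988). With the replicate block these adjusted p-values were 0.05, just under the threshold before rounding, and 0.0392, and with median centring 0.0215 and 0.0247. Groups that do not overlap were common: 15.0% of all genes had all 3 WT tumor DNA arrays above WT media and 31.4% had them all below. These shares were 31.3% above and 14.7% below in STING tumor DNA against WT tumor DNA, and in STING tumor DNA against WT media 5.93% and 7.88%.

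Zbtb46, the conventional dendritic cell factor, was dim and was not called in any comparison. Its brightest probe set (1454884_at) read 226, 103 and 155 in STING tumor DNA arrays, 91.7, 127 and 54.1 in WT tumor DNA arrays, and 116, 103 and 54.5 in WT media arrays. STING tumor DNA arrays 1 and 3 were the highest of the 9, and the groups overlapped through number 2. STING tumor DNA against WT tumor DNA gave 0.73 ± 0.36 (adjusted p = 0.173; 1.17, −0.27 and 1.28 within numbers 1, 2 and 3), and WT tumor DNA against WT media gave −0.01 ± 0.36 (adjusted p = 0.982). The next probe set (1429168_at) ranged from 56.2 to 147 and gave 0.09 ± 0.28 in STING tumor DNA against WT tumor DNA, so the 2 did not give the same size of difference. Probe set 1440489_at ranged from 25.8 to 89.7 and was not called, and probe set 1453856_at lay below the filter.

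Mertk, whose product binds dying cells through bridging proteins, had the largest differences among the main probe sets of the 8 tested genes in the comparisons with WT tumor DNA. Its probe set (1422869_at) read 2799, 1166 and 1670 in STING tumor DNA arrays, 10693, 2894 and 5499 in WT tumor DNA arrays, and 4797, 1375 and 2691 in WT media arrays. STING tumor DNA arrays were all below WT tumor DNA arrays, whereas WT media overlapped with both. STING tumor DNA against WT tumor DNA gave −1.65 ± 0.53 (95% interval −2.82 to −0.47, adjusted p = 0.0443), a ratio of 0.32, and the differences within numbers 1, 2 and 3 were −1.93, −1.30 and −1.71.
The 9 Mertk values also differed by number, with number 1 highest and number 2 lowest in each group. The replicate block left the difference at −1.65 with a standard error of 0.14 (adjusted p = 4.96e-05). Without the block the call was close to the threshold: it ended with quantile normalization (adjusted p = 0.0575), with no filter (0.0648), with no intensity trend (0.0657) and without number 3 (0.247). It also ended without array 2 (0.144) or 3 (0.108) of STING tumor DNA and without array 1 (0.156) or 3 (0.0961) of WT tumor DNA.
WT tumor DNA against WT media gave 1.08 ± 0.53 for Mertk, which was not called (adjusted p = 0.159). The 3 differences within numbers were 1.15, 1.07 and 1.03, and the replicate block called it (1.08 ± 0.14, adjusted p = 0.000454), as did number 1 as a batch (0.0154). STING tumor DNA against WT media gave −0.56 ± 0.53 (adjusted p = 0.946), with −0.77, −0.23 and −0.68 within the numbers, and was not called with the block either (0.115).

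Adgre1, the F4/80 gene, had differences opposite in sign to those of Mertk in both comparisons with WT tumor DNA and in every number. Its probe set (1451161_a_at) read 7101, 4847 and 6007 in STING tumor DNA arrays, 5599, 3118 and 5067 in WT tumor DNA arrays, and 8312, 4167 and 6183 in WT media arrays. The groups overlapped, but in each number the WT tumor DNA array was the lowest of the 3. WT tumor DNA against WT media gave −0.42 ± 0.28 (adjusted p = 0.295; −0.57, −0.42 and −0.29 within numbers 1, 2 and 3), and STING tumor DNA against WT tumor DNA gave 0.41 ± 0.28 (adjusted p = 0.325; 0.34, 0.63 and 0.25). Neither was called without the block. With the replicate block both were, at adjusted p = 0.0191 and 0.0238.

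Dpp4, the CD26 gene, was dim and not called. Its brightest probe set (1416697_at) read 61.8, 63.5 and 69.1 in STING tumor DNA arrays, 102, 222 and 78.6 in WT tumor DNA arrays, and 113, 143 and 36.8 in WT media arrays. The STING tumor DNA arrays lay close together and below all WT tumor DNA arrays, and the WT media arrays spanned both. STING tumor DNA against WT tumor DNA gave −0.78 ± 0.44 (adjusted p = 0.228), and WT tumor DNA against WT media gave 0.43 ± 0.44 (adjusted p = 0.511). Another probe set (1438279_at) read 36.2, 8.55 and 25.4 in STING tumor DNA arrays, 45.8, 110 and 62.7 in WT tumor DNA arrays and 53.7, 51.7 and 12.0 in WT media arrays. It gave −1.18 ± 0.46 in STING tumor DNA against WT tumor DNA (adjusted p = 0.0871; 0.0425 with median centring). Probe set 1459973_x_at ranged from 24.8 to 144 and gave −0.15 ± 0.48 in the same comparison, and probe set 1441342_at lay below the filter.

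**Figure D3:**
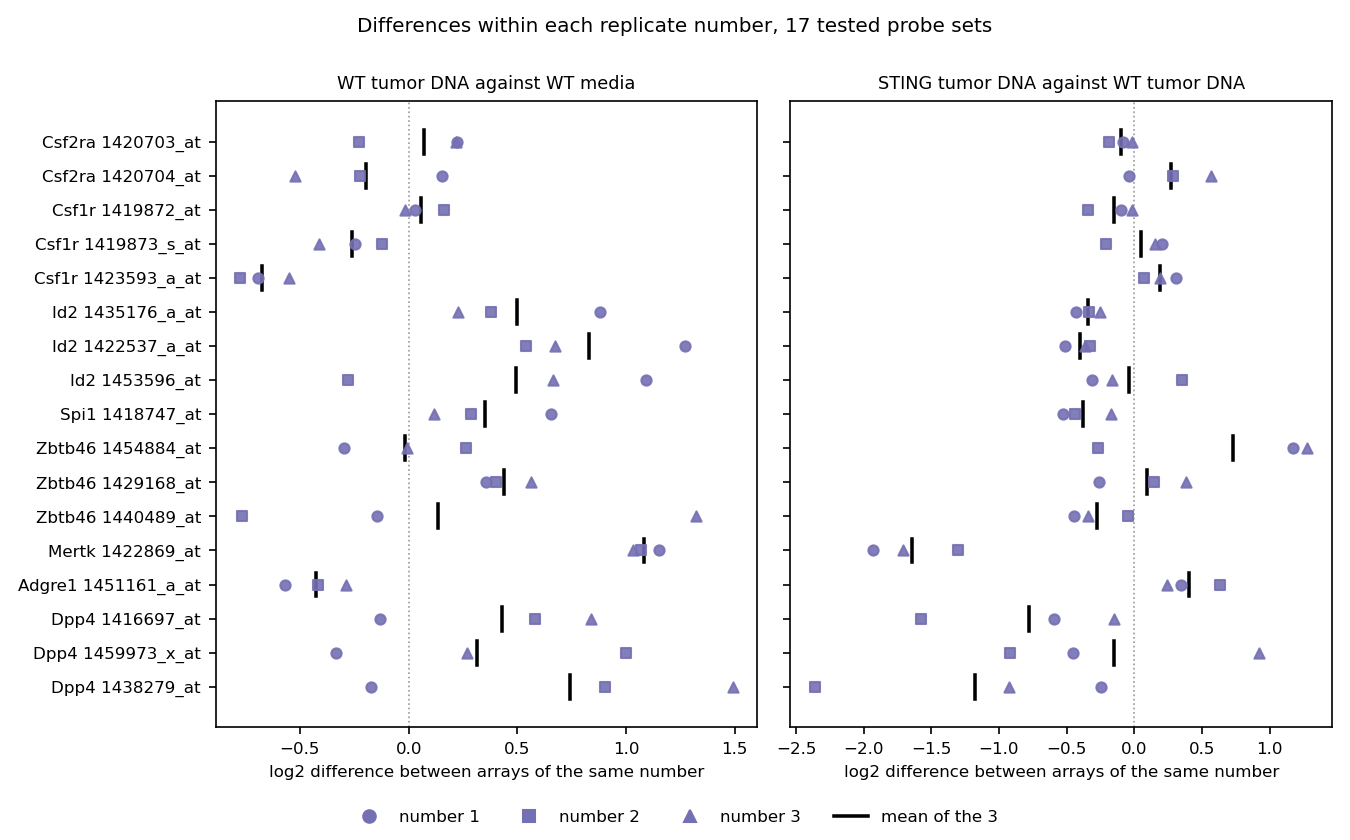
Log2 differences between arrays of the same replicate number (horizontal axis) for the 17 tested probe sets of the 8 genes, in WT tumor DNA against WT media and in STING tumor DNA against WT tumor DNA. Points are the 3 numbers and black bars their mean. For Mertk the 3 points lay between 1.03 and 1.15 and between −1.93 and −1.30, and the 3 points of the dimmest Csf1r probe set lay between −0.78 and −0.55 in WT tumor DNA against WT media.

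With the replicate number as a block, Id2, Spi1 and Mertk were called higher and Adgre1 lower in WT tumor DNA against WT media, where 12.9% and 30.6% of all genes were, and Spi1 and Mertk were called lower and Adgre1 higher in STING tumor DNA against WT tumor DNA, where 12.6% and 28.9% were. The block called 0 of the 8 in STING tumor DNA against WT media, where 0.675% of all genes were called higher and 0.739% lower. The direction of the calls over all genes depended on the scaling. With median centring 15.6% of genes were called higher and 10.8% lower in WT tumor DNA against WT media, 11.0% higher and 13.9% lower in STING tumor DNA against WT tumor DNA, and 0.222% higher and 0.230% lower in STING tumor DNA against WT media. With quantile normalization the shares in this order were 10.5% and 16.6%, 16.1% and 10.4%, and 0.199% and 0.246%. The median difference over all tested probe sets was −0.16 and 0.16 in these comparisons as deposited, and 0.14 and −0.10 with median centring, so a member difference of that size cannot be told apart from the scaling. The 8 main probe sets gave −0.56 to 0.71 in STING tumor DNA against WT media, with the extremes at Mertk and Zbtb46, and in each of the 8 the groups overlapped. Of the dimmer probe sets, Id2 1422537_a_at and 1453596_at had all 3 STING tumor DNA arrays above the 3 WT media arrays, neither called. By main probe set, 5.93% of all genes had this.

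As a description, the genes whose log2 values ran most like each member over the 9 arrays (Pearson r, 12578 other genes, arrays of all groups pooled) were named. Those of Mertk were Gyg at 0.976, Ogfrl1 at 0.974 and Avl9 at 0.974. Those of Id2 were Dcun1d3 at 0.984, Cebpb at 0.971 and Naa20 at 0.969, and those of Spi1 were Ciao2b at 0.979, Ptx3 at 0.965 and Flrt2 at 0.961. Csf1r ran most like Ly86 (0.972), Rpl37a (0.951) and the class II gene H2-Aa (0.949), and Csf2ra like Stap2 (0.954), Rab8a (0.928) and Hp (0.917). Adgre1 ran most like Kctd18 (0.958), Tlk1 (0.953) and Gas6 (0.952), Zbtb46 like Cd36 (0.958), Slc39a13 (0.947) and Gtpbp1 (0.940), and Dpp4 like Hhex (0.929), Glcci1 (0.926) and Ccr6 (0.924). Between members, the highest of 28 values was 0.898 for Id2 with Spi1, Csf1r with Mertk gave 0.804, and the lowest was −0.735 for Spi1 with Adgre1. The highest of so many values over 9 arrays that share groups and numbers will be high by selection.

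Around the receptors, the list of growth factor receptors and ligands had 8 tested genes, of which 1 was called higher and 0 lower in WT tumor DNA against WT media, and 0 higher and 1 lower in STING tumor DNA against WT tumor DNA. Over all 12586 genes, 9.53% were called higher and 22.5% lower in the first comparison, and 20.5% higher and 9.40% lower in the second. With the replicate block these shares were 12.9% and 30.6%, and 28.9% and 12.6%. With median centring they were 15.6% and 10.8%, and 11.0% and 13.9%. The counts of the lists and markers below stand beside these shares. The gene of this list called by its main probe set was Kitl, which codes for the ligand of the receptor KIT. Kitl read 626, 264 and 497 in STING tumor DNA arrays, 3906, 1558 and 1782 in WT tumor DNA arrays, and 1115, 372 and 463 in WT media arrays, so that the WT tumor DNA arrays lay above all others. Its differences were 1.91 ± 0.47 in WT tumor DNA against WT media (adjusted p = 0.0135) and −2.30 ± 0.47 in STING tumor DNA against WT tumor DNA (adjusted p = 0.00549), and both calls ended without number 3 (0.117 and 0.0633). That against WT media also ended without array 1 of WT tumor DNA (0.0518) or array 2 of WT media (0.0505). Csf1 codes for M-CSF, the ligand of CSF1R. Its main probe set gave 0.79 ± 0.44 in WT tumor DNA against WT media (adjusted p = 0.216), which the replicate block called (0.0129). In STING tumor DNA against WT tumor DNA the main probe set gave −0.55 ± 0.44. A dimmer Csf1 probe set was called higher in WT tumor DNA against WT media (1.19, adjusted p = 0.0386). Further Csf1 probe sets gave 0.83 and 0.98 there and were not called (adjusted p = 0.116 and 0.129). In STING tumor DNA against WT tumor DNA these dimmer probe sets gave −0.92, −0.66 and −0.66, none called. The beta chain genes Csf2rb and Csf2rb2, partners of the Csf2ra product, gave 0.05 ± 0.12 and 0.10 ± 0.12 in WT tumor DNA against WT media and −0.11 ± 0.12 and −0.12 ± 0.12 in STING tumor DNA against WT tumor DNA, none called. Il3ra, Csf3r, Csf3 and Kit were not called, Csf2 and Il34 lay below the filter, and Flt3l was not analysed here.

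Below these receptors, 4 of 15 signalling genes were called higher and 3 lower in WT tumor DNA against WT media, and 3 higher and 2 lower in STING tumor DNA against WT tumor DNA. These counts were 6 and 3, and 4 and 2, with the replicate block. Under median centring they were 6 and 0, and 0 and 3, so every call lower in WT tumor DNA and every call higher in STING tumor DNA was lost, and under quantile normalization 3 and 2, and 1 and 2. Jak2, the kinase bound to the GM-CSF receptor, read 2458, 2624 and 2783 in STING tumor DNA arrays, 8012, 6098 and 7265 in WT tumor DNA arrays, and 2903, 2455 and 2329 in WT media arrays. It gave 1.47 ± 0.15 and −1.43 ± 0.15 in these comparisons (adjusted p = 0.00027 and 0.000196). Stat3 moved the same way (1.15 and −1.11, adjusted p = 0.00319 and 0.00345, both lost without number 3, at 0.0651 and 0.0612). Stat5b moved the other way (−0.66 and 0.66, adjusted p = 0.0137 and 0.014), and both calls ended with median centring (0.138 and 0.108), with quantile normalization (0.119 and 0.11), with its probe sets averaged (0.311 and 0.507), without number 2 (0.104 and 0.142) and without number 3 (0.106 and 0.0953). The first also ended without number 1 (0.0555). The kinase gene Pim1, a STAT target, gave 1.60 ± 0.33 in WT tumor DNA against WT media (adjusted p = 0.0061; 0.0514 without number 1) and −0.65 in STING tumor DNA against WT tumor DNA, not called.

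Among the partners of the ID2 product, 1 of 5 Id and E protein genes was called higher and 3 lower in WT tumor DNA against WT media, and 2 higher and 1 lower in STING tumor DNA against WT tumor DNA (3 and 1 with the block). Id3, a second inhibitor of E proteins, read 2333, 1055 and 1521 in STING tumor DNA arrays, 530, 640 and 207 in WT tumor DNA arrays, and 2950, 1360 and 1166 in WT media arrays, so it ran opposite to Id2. Its differences were −1.97 ± 0.46 and 1.86 ± 0.46 (adjusted p = 0.0109 and 0.0144; 0.0672 and 0.116 without number 3). Of the E proteins, Tcf4 was higher in WT tumor DNA arrays (1.25 ± 0.26, adjusted p = 0.00659; 0.0762 without number 3) and lower in STING tumor DNA arrays (−1.90 ± 0.26, adjusted p = 0.000792). Tcf12 gave −0.86 ± 0.16 and 0.83 ± 0.16 (adjusted p = 0.00373 and 0.00419), with both calls lost without number 3 (0.0586 and 0.057) and the first also with its probe sets averaged (0.0521).

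Among the relatives and partners of PU.1, 3 of 14 genes were called higher and 2 lower in WT tumor DNA against WT media, and 3 higher and 2 lower in STING tumor DNA against WT tumor DNA. The block gave 4 and 2 in the first and the same counts in the second, and median centring gave 5 and 2, and 1 and 3. Cebpa, which codes for a myeloid factor that works with PU.1, read 1298, 666 and 853 in STING tumor DNA arrays, 170, 195 and 196 in WT tumor DNA arrays, and 1299, 766 and 682 in WT media arrays. Its differences were −2.14 ± 0.29 and 2.18 ± 0.29 (adjusted p = 0.000868 and 0.000641). The ETS factor gene Elf1 gave 0.51 and −0.74 (adjusted p = 0.0101 and 0.00164), and Fli1 gave −0.89 and 0.67 (adjusted p = 0.00346 and 0.013). Without number 3 these 4 calls ended, at 0.108 and 0.0592 for Elf1 and 0.0627 and 0.0699 for Fli1. In WT tumor DNA against WT media the Elf1 call also ended without number 2 (0.104) and with its probe sets averaged (0.106). The Fli1 call in STING tumor DNA against WT tumor DNA also ended without number 1 (0.0869) or 2 (0.0726) and with median centring (0.125).

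Around the Zbtb46 gene, the other transcription factors of dendritic cells had 2 of 15 genes called higher and 2 lower in WT tumor DNA against WT media, which became 5 and 2 with the replicate block and 5 and 1 with median centring. In the second comparison, STING tumor DNA against WT tumor DNA, 3 were higher and 3 lower, which became 3 and 4 with the block and 1 and 4 with median centring. Batf3, needed for cross-presenting dendritic cells, read 444, 327 and 347 in STING tumor DNA arrays, 164, 204 and 114 in WT tumor DNA arrays, and 375, 457 and 302 in WT media arrays. It gave −1.17 ± 0.25 and 1.16 ± 0.25 (adjusted p = 0.00664 and 0.00681), and these calls ended without number 3 (0.0576 and 0.0772) and the second also without number 1 (0.052). Zeb1 gave 1.49 ± 0.26 and −1.24 ± 0.26 (adjusted p = 0.00264 and 0.00611), the second lost without number 2 (0.0657) or 3 (0.0587). A list of 9 genes held BTB zinc finger relatives and Kdm1a, which is not a BTB zinc finger gene. In WT tumor DNA against WT media, Kdm1a was called higher (0.44, adjusted p = 0.0337). Zbtb20 was called lower there (−1.32, adjusted p = 0.0102, and 0.0712 without number 1). Zbtb17 was called higher in STING tumor DNA against WT tumor DNA (1.25, adjusted p = 0.00309, and 0.0842 without number 3). The Kdm1a call ended without any 1 number (0.0535 to 0.242). The block gave 3 higher and 1 lower of the 9 in the first comparison and 1 higher and 2 lower in the second. Among conventional dendritic cell surface and function genes, 1 of 19 was called higher and 1 lower in each of these comparisons. The block gave 1 higher and 3 lower in WT tumor DNA against WT media and 1 higher and 5 lower in STING tumor DNA against WT tumor DNA, and median centring gave 2 and 0, and 1 and 4. Ly75, which codes for DEC-205, gave 1.74 ± 0.38 in WT tumor DNA against WT media (adjusted p = 0.00824; 0.0702 without number 3), and Cadm1 gave −1.08 ± 0.33 and 1.43 ± 0.33 (adjusted p = 0.0347 and 0.0104; 0.129 and 0.126 without number 3). In WT tumor DNA against WT media the Cadm1 call also ended without number 1 (0.143) or 2 (0.0578), with quantile normalization (0.0759), with median centring (0.129), with no filter (0.0624) and with its probe sets averaged, where the difference was −0.52 (0.132). Cd1d1 was called lower in STING tumor DNA against WT tumor DNA (−0.72, adjusted p = 0.0249; 0.0969 with quantile normalization, 0.135 without number 2 and 0.0748 without number 3).

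The maturation genes of dendritic cells had 5 of 12 called higher and 0 lower in WT tumor DNA against WT media, and 0 higher and 3 lower in STING tumor DNA against WT tumor DNA, with median differences of 1.13 and −0.50. Over all genes 9.53% were called higher and 22.5% lower in the first comparison, and 20.5% higher and 9.40% lower in the second. With the block the counts of this list were 8 and 0, and 0 and 4. Cd40, the receptor for the T-cell protein CD40L, read 993, 364 and 636 in STING tumor DNA arrays, 17487, 9243 and 8892 in WT tumor DNA arrays, and 751, 612 and 423 in WT media arrays, and gave 4.25 ± 0.37 and −4.16 ± 0.37 (adjusted p = 0.000175 and 9.72e-05). The costimulatory gene Cd86 gave 2.62 and −1.84 (adjusted p = 0.000175 and 0.000457). Cd200 gave 1.37 and −0.95 (adjusted p = 0.00739 and 0.0375; 0.0708 and 0.0876 without number 3), and the call in STING tumor DNA against WT tumor DNA ended without any 1 number (0.0876 to 0.187).

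**Figure D4:**
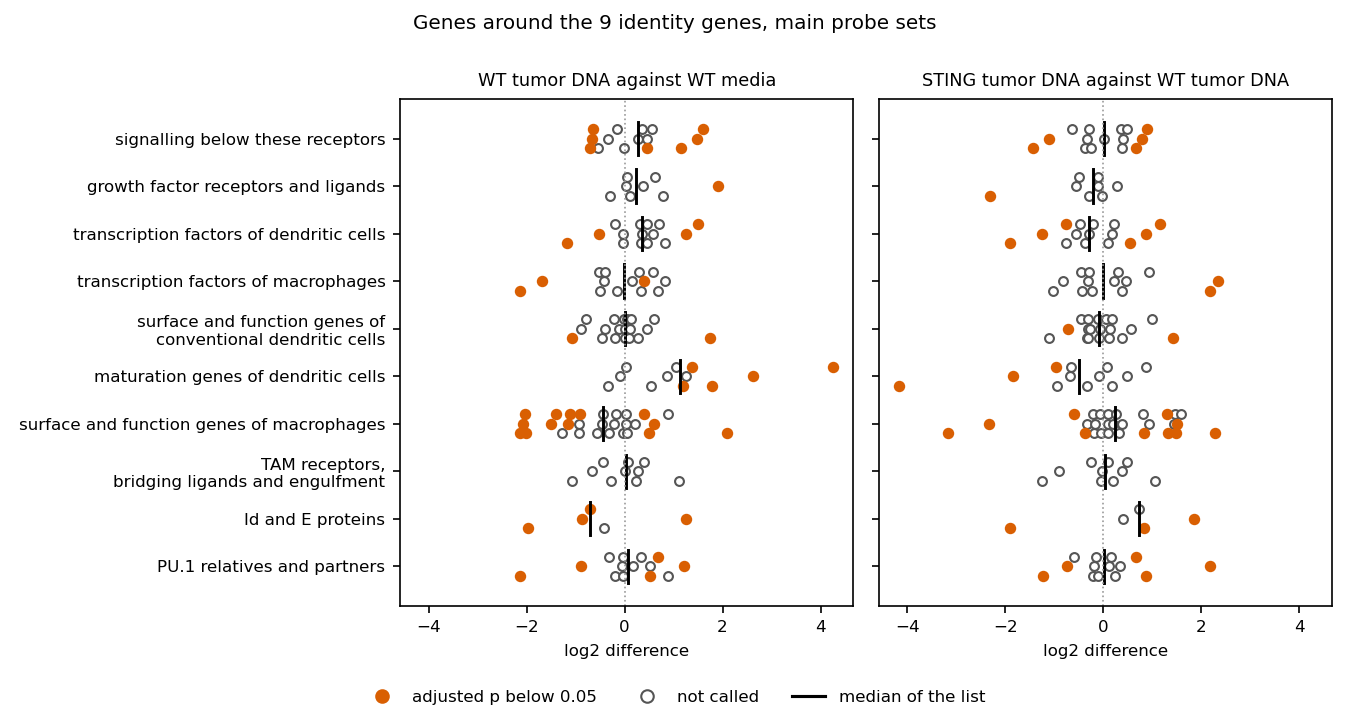
Log2 differences of the main probe sets of genes in 10 lists around the identity genes (horizontal axis), 1 point per gene, in WT tumor DNA against WT media and in STING tumor DNA against WT tumor DNA. Filled points passed an adjusted p below 0.05 and black bars are list medians. The list of maturation genes had its median at 1.13 and −0.50, and Cd40 lay farthest from 0 in both.

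Around Mertk, 0 of 10 genes for the related receptors, their bridging ligands and engulfment were called in WT tumor DNA against WT media or in STING tumor DNA against WT tumor DNA, with limma's adjusted p. With the replicate block 2 were called higher and 1 lower in the first comparison, and 1 higher and 1 lower in the second. At an unadjusted p below 0.05 the counts were 2 higher and 0 lower, and 1 higher and 2 lower. Axl, Gas6 and Itgav of this list are named after their values were seen. Axl, the sister receptor of MERTK, read 7464, 2641 and 2699 in STING tumor DNA arrays, 14060, 6786 and 7467 in WT tumor DNA arrays, and 7049, 3456 and 2883 in WT media arrays. It gave 1.11 ± 0.45 and −1.24 ± 0.45 (adjusted p = 0.0961 and 0.0695; 0.000315 and 0.000141 with the block). Gas6, which codes for a ligand of both receptors, gave −1.08 ± 0.67 and 1.05 ± 0.67 (adjusted p = 0.262 and 0.285), and the block called both. Number 1 was the highest in each group for Mertk, Axl and Gas6.

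Beside Adgre1, 4 of 28 surface and function genes of macrophages were called higher and 9 lower in WT tumor DNA against WT media, where 9.53% and 22.5% of all genes were, and 6 higher and 4 lower in STING tumor DNA against WT tumor DNA. The block gave 4 higher and 13 lower, where 12.9% and 30.6% of all genes were, and 9 higher and 4 lower. Median centring gave 4 and 6, and 4 and 5, and quantile normalization 2 and 8, and 6 and 3. Fcgr1, which codes for the IgG receptor CD64, gave 2.10 ± 0.45 and −2.32 ± 0.45 (adjusted p = 0.00695 and 0.00409), and both calls ended without number 3 (0.0658 and 0.0653). Myo7a, a motor protein gene, gave −2.08 and 2.28 (adjusted p = 0.000454 and 0.000204). The scavenger receptor gene Cd163 gave −2.02 and 1.49 (adjusted p = 0.000564 and 0.00198), and Lamp2 of the lysosome membrane gave 0.60 and −0.59 (adjusted p = 0.0023 and 0.00228). Of 14 transcription factors of macrophages, 1 was called higher and 2 lower in WT tumor DNA against WT media, and 2 higher and 0 lower in STING tumor DNA against WT tumor DNA; with the block these were 2 and 4, and 3 and 2, and with median centring 2 and 1, and 2 and 2. Besides Cebpa they were Pparg, the lipid-sensing factor gene, at −1.68 ± 0.44 and 2.35 ± 0.44 (adjusted p = 0.0179 and 0.00347; 0.132 and 0.0792 without number 3), and Cebpb at 0.39 ± 0.12 in WT tumor DNA against WT media (adjusted p = 0.0383), a call that ended with quantile normalization (0.418) and without any 1 number (0.0799 to 0.157). In WT tumor DNA against WT media the Pparg call also ended with median centring (0.0538), without array 2 of WT tumor DNA (0.0567) and without array 1 of WT media (0.0644).
Of 4 tested adhesion G protein-coupled receptor genes, the family of Adgre1, Adgre5 was called lower in WT tumor DNA against WT media (−0.76, adjusted p = 0.0497) and higher in STING tumor DNA against WT tumor DNA (0.94, adjusted p = 0.0209), and Adgrl2 higher in STING tumor DNA against WT tumor DNA (1.21, adjusted p = 0.0459). None of these 3 calls held with quantile normalization (0.125, 0.0505 and 0.0863), with median centring (0.247, 0.0959 and 0.117) or without number 3 (0.219, 0.177 and 0.213). The block called 2 of the 4 lower in WT tumor DNA against WT media. Among 8 peptidases and partners of the Dpp4 product, Fap, the closest relative, read 55.0, 54.3 and 32.5 in STING tumor DNA arrays, 229, 169 and 213 in WT tumor DNA arrays, and 46.7, 47.3 and 73.0 in WT media arrays. It gave 1.63 ± 0.26 and −1.81 ± 0.26 (adjusted p = 0.00196 and 0.000993), while the intracellular peptidase genes Dpp7 (−0.92 and 1.13, adjusted p = 0.00552 and 0.00179) and Prep (−0.98 and 1.08, adjusted p = 0.00626 and 0.00368) ran the other way. In all, 2 of the 8 were called higher and 2 lower in WT tumor DNA against WT media, and 3 higher and 2 lower in STING tumor DNA against WT tumor DNA; the block gave 2 and 3 in the first. The Prep calls ended without number 2 (0.0639 and 0.0505). In STING tumor DNA against WT media 0 of the 155 tested genes of these lists were called with limma's adjusted p. At an unadjusted p below 0.05, 14 (9.03%) were higher and 8 (5.16%) lower there, where 3.35% and 4.39% of all genes were. Tcf4 was called lower there with the replicate block.

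The labelled cell type was set against its markers. The dendritic cell markers Itgax, Cd74, H2-Aa, H2-Ab1 and H2-Eb1, the last 4 of which belong to antigen presentation by class II molecules, had a summed signal of 67164 to 94195 in STING tumor DNA, 85901 to 112455 in WT tumor DNA and 87545 to 101317 in WT media arrays. Flt3 and Zbtb46, the members tied above to the dendritic cell lineage, were not part of this sum. Flt3 read 5.74 to 55.1 over all arrays and was above the array's median on none. The brightest Zbtb46 probe set read 54.1 to 226. The sum therefore describes Itgax and the class II genes only, and does not settle the labelled cell type. Of the 5 summed genes, 0 were called with limma's adjusted p in any comparison. At an unadjusted p below 0.05, 2 were lower in STING tumor DNA against WT tumor DNA, and 3 were called lower in STING tumor DNA against WT tumor DNA with the replicate block. The macrophage markers Fcgr1, Cd68, C1qa, C1qb and C1qc summed to 28759 to 58472 in STING tumor DNA, 39290 to 79655 in WT tumor DNA and 34040 to 70099 in WT media arrays, and 1 of 5, Fcgr1, was called, as given above. The members Adgre1, Mertk and Csf1r were not part of this sum. In both comparisons with WT tumor DNA, Mertk had the sign of Fcgr1 and Adgre1 the opposite sign. With the block C1qa, of the complement protein C1q, was also called lower in WT tumor DNA against WT media. Markers of other cells moved beside the members. Mast cell and basophil markers summed to 174 to 229 in STING tumor DNA, 501 to 1380 in WT tumor DNA and 339 to 970 in WT media arrays, and 3 of 4 tested, Fcer1a (−1.99), Cpa3 (−1.51) and Mcpt8 (−1.70), were called lower in STING tumor DNA against WT tumor DNA (adjusted p = 0.00827, 0.0277 and 0.0487), all lost without number 3 (0.0512, 0.128 and 0.116). B cell markers summed to 148 to 307, 360 to 2280 and 286 to 1247 in these groups, and 0 of 3 were called with limma's adjusted p in STING tumor DNA against WT tumor DNA, 2 were lower at an unadjusted p below 0.05 and 3 were called lower with the block. Neutrophil markers summed to 34994 to 41801, 24891 to 91228 and 17130 to 71159, and 1 of 7, Mpo, was called lower in STING tumor DNA against WT tumor DNA (−1.08, adjusted p = 0.0428; lost without any 1 number, at 0.0934 to 0.129; 4 of 7 with the block). Fibroblast markers summed to 844 to 6139, 666 to 4413 and 563 to 5261, with 0 of 4 called and 0 at an unadjusted p below 0.05 (1 was called higher with the block in STING tumor DNA against WT tumor DNA). Of 3 plasmacytoid dendritic cell markers and 1 red cell marker, 0 were called with limma's adjusted p, with 2 of the plasmacytoid markers higher at an unadjusted p below 0.05 in STING tumor DNA against WT tumor DNA, and the 5 T and NK cell markers measured all lay below the filter. In STING tumor DNA against WT media the replicate block called Fcer1a and the neutrophil marker Camp lower. At an unadjusted p below 0.05, 2 of 4 mast cell and basophil markers were lower there, where 4.39% of all genes were. So were 2 of 7 neutrophil and 1 of 3 B cell markers, and 0 of these markers were higher. The part of these cells in the differences of Mertk, Id2 and the other members was not tested.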

How the data were processed

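Transcript levels were measured on 9 Affymetrix arrays, 3 in each of 3 groups, from 6 ug of total RNA per the labels' protocols. The deposited values are linear signal intensities made with MAS5, per the submitters' processing notes; no source used here gives its version or scaling settings. The deposited intensities had a mean of 500.0 between the 2nd and 98th percentiles on each array. Of 45101 probe sets, 64 were controls, 34945 carried 1 gene symbol, 932 several and 9160 none in GEO's platform annotation. No detection calls were used, and the number of arrays limits the precision.

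Signals were taken as log2(signal + 16), which understates differences of dim probe sets. Control probe sets were removed, and probe sets with a mean above the 40th percentile (5.67 in log2, a signal of 34.8) were kept. The 3 groups were fitted together with limma 3.58.1 under R 4.3.3 (functions lmFit and eBayes, eBayes with a trend on intensity; no term for the replicate number; 2-sided), and p-values were adjusted by Benjamini-Hochberg over the 27022 probe sets. The code was tested on simulated data. The main probe set of a gene is the one with the highest mean.

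The replicate numbers come from the sample titles. Residuals from the group means correlated at 0.111 to 0.434 over the 9 pairs that share a number and at −0.365 to 0.16 over the 18 pairs that do not, and 9 of 9 arrays correlated best with one of their own number, so the numbers were taken to pair the samples. The number as a block, number 1 as a batch, quantile normalization, median centring, other offsets and filters, fits without the trend or with only the groups compared, other choices of probe set and leaving out each number and each array were alternatives.

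The 9 genes, the lists around them and the markers were chosen with earlier results of these data known. All 9 genes are named with every probe set. Of the lists, all growth factor receptor and ligand genes are named, and elsewhere at most the 3 called genes with the smallest adjusted p in each comparison; exceptions are said to be so. Without unstimulated knockout cells no interaction was tested.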

Additional observations from a re-analysis of the deposited data

How the results depend on the processing

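In WT tumor DNA against WT media, 1 of the 9 genes was called higher (Id2). This count was 0 with quantile normalization, with no filter and with no intensity trend, 2 with median centring (Id2 and Spi1), 3 with the replicate block and 3 with number 1 as a batch (Id2, Spi1 and Mertk in both), and 0 to 1 when a number or an array was left out. The count called lower, 0, became 1 (Adgre1) with the replicate block and 1 with the block and quantile normalization together, an alternative chosen after seeing the data. In STING tumor DNA against WT tumor DNA, 1 gene was called lower (Mertk). This count was 0 with quantile normalization, with no filter and with no intensity trend, 3 with median centring (Id2, Spi1 and Mertk), 2 with only the 2 groups compared (Id2 and Mertk), 2 with the replicate block and 2 with number 1 as a batch (Spi1 and Mertk in both), and 0 to 1 when a number or an array was left out. The count called higher, 0, became 1 (Adgre1) with the replicate block and 1 with the block and quantile normalization together. The counts of 0 in STING tumor DNA against WT media were the same in every alternative run. No called value changed sign in any of them. The cause of these changes was not tested, except that the filter and the left-out arrays change how many probe sets and arrays were used. Over all probe sets, 7284, 6796 and 103 were called in the 3 comparisons. These counts were 3584, 3327 and 65 with the mean of a gene's probe sets, and 4224, 3970 and 54 with 1 probe set per gene. They were 2206, 2156 and 5 without number 3, and 9951, 9525 and 323 with the replicate block. The main probe sets of Zbtb46 and Dpp4 were above the array's median on 7 of 9 arrays each and that of Flt3 on 0, so Flt3 could not be compared.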
